A study of Mus musculus with 7 samples.

Results

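Antioxidant and glutathione genes were examined in quadriceps muscle of AR113Q knock-in mice, a model of spinobulbar muscular atrophy (SBMA), and of WT mice. The list holds 44 genes, taken by name. They are regulators of the antioxidant response, enzymes that act on quinones, heme and carbonyls, glutathione synthesis and recycling enzymes and the thioredoxin system. The rest are peroxiredoxins, superoxide dismutases and catalase, glutathione peroxidases and glutathione S-transferases. All 44 had a probe on the array, were tested among 16574 genes and were well above background on all 7 arrays.

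SBMA is an inherited disease of motor neurons and muscle. AR113Q mice are a knock-in line, and at the age studied they had not yet developed motor dysfunction. There were 3 arrays from AR113Q and 4 from WT mice of the C57BL/6 strain, 1 array per mouse, at 3 months (90 days) of age, and no treatment is given in the sample labels. The series text writes the mutant group as AR113Q-NCD, and the suffix is not spelled out in the sources used here. The labels call the controls WT, whereas the results text of the study describes controls that are themselves knock-in mice, so that the knock-in as such may or may not be shared by both groups. Whole muscle was measured, so that fewer cells of a type and less RNA per cell cannot be told apart.

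Reactive oxygen species form continuously in working muscle. Superoxide dismutases turn superoxide into hydrogen peroxide, which catalase, peroxiredoxins and glutathione peroxidases then remove. The peroxidases draw their electrons from thioredoxin or from glutathione, a tripeptide that is made in the cytosol, is recycled by glutathione reductase and is also joined to reactive compounds by glutathione S-transferases. Many of these genes are targets of the transcription factor Nrf2 (gene Nfe2l2), which Keap1 marks for degradation and which binds antioxidant response elements together with small Maf proteins.

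The core of that element, TGACNNNGC, was looked for on both strands of the RefSeq promoter windows (build GRCm38.p6, 250 bases before to 50 bases after the start of a gene). Of 27025 genes with a window, 14.0% held it, and of the 37 members with a window, 8 held it (Gclm, Gstm5, Mgst1, Nfe2l2, Prdx1, Sod1, Srxn1 and Txnrd1). Windows for Gclc, Gsr, Gsta4, Hmox1, Msra, Prdx6 and Sod3 were not used here. Gclm and Prdx1 are shown as the one of these 8 that passed the test described below and as one whose probes gave different answers, each as the 250 bases before the start on the plus strand with the match in capitals. The Gclm stretch is chr3:122245307-122245556 and the Prdx1 stretch is chr4:116685349-116685598. Txnip is shown because it was the thioredoxin system gene that passed the test, and its stretch is chr3:96557707-96557956. Its capitals mark a pair of boxes like those of a carbohydrate response element.
Gclm: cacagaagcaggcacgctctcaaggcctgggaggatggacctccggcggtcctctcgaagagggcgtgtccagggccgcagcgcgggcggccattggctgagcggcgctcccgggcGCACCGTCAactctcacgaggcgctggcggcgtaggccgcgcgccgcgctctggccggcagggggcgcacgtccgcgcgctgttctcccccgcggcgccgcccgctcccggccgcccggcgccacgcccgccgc
Prdx1: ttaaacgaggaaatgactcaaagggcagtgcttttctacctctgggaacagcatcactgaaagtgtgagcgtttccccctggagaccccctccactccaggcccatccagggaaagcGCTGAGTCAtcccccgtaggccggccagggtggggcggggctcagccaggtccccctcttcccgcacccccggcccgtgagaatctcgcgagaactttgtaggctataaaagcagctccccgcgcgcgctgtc
Txnip: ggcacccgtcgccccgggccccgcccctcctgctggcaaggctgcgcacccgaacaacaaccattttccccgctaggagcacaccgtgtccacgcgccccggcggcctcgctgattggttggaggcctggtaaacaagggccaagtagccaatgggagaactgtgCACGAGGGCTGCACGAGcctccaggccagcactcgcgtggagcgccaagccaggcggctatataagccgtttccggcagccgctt

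The motif marked in Txnip was not part of the planned search. It was added after the values of Txnip had been seen, and 2 forms of it were searched on both strands. The first form, CACGNG and CNCGNG with 5 bases between them, was present in 0.426% of genes, and the stricter form, CACGNG and CACGNG with 5 bases between them, in 0.0555%. Under either form Txnip was the 1 member of 37 with a match, at bases -85 to -69 from its start. A match describes these letters and does not show a binding site. Of the 8 genes with the antioxidant core, 1 (Gclm) passed an adjusted p of 0.05 in the comparison of genotypes, beside 43.6% of all genes tested.

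Each array held 43020 spots that were not controls, between 47.7% and 55.9% of its 39429 probes were well above background, and 0 spots were saturated. Of 5 slides, slide 2 alone carried both genotypes, with WT replicate 2 beside AR113Q replicate 1. Values are log2 signals after quantile normalization, and a difference is the AR113Q mean minus the WT mean, so that 1 stands for 2-fold. Differentially expressed genes (DEGs) are those with an adjusted p up to 0.05 and a change of 2-fold or more, and "rose" and "fell" are used for genes past the adjusted p. P-values are from limma adjusted over all tested genes by the Benjamini-Hochberg method, and the number of arrays limits their precision. Signals of different probes are not compared with each other.

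The arrays fell apart by genes of slow and oxidative muscle fibers. Myh7, the slow myosin heavy chain, read 12.56 and 11.89 on WT replicates 2 and 3 and 13.59 on AR113Q replicate 3, but 4.95 to 6.66 on the other 4 arrays. Tnnt1, the slow skeletal troponin T, read 11.78 to 13.46 on those 3 arrays and 7.33 to 8.08 on the others, and Myh2, the myosin of fast oxidative fibers, 14.75 to 15.92 against 11.27 to 12.14. These 3 arrays come from both genotypes, and the difference between genotypes was -0.19 for Myh7 (adjusted p = 0.955 from limma). The results below are therefore also given with these arrays as a block and without them, in fits chosen after the data had been seen.

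AR113Q and WT muscle differed in both directions within the list. Cbr2, Sod3, Gstt1 and Gpx8 were DEGs that fell, and Txnip and Gstm2 were DEGs that rose. These 6 DEGs were 13.6% of the members, and 24.3% of all genes tested were DEGs, with 11.2% of genes up and 13.1% down. At an adjusted p of 0.05 alone, 18 members passed (40.9%), 9 higher and 9 lower, beside 43.6% of all genes, of which 21% rose and 22.6% fell. The values of the genotypes did not overlap in 22 members (50%) and in 49.3% of all genes. The median difference over the 44 members was 0.02 on the log2 scale, beside -0.01 over all genes. Which share of DEGs was larger depended on the values used: with normexp background correction and with the authors' normalized values the members again held 2 DEGs up and 4 down, while 10.6% and 9.17% of all genes were DEGs. With the 3 arrays high in slow fiber genes as a block, the 6 DEG members were again DEGs, and 17 members passed the adjusted p, 15 of them among the 18, beside 43.1% of all genes past the adjusted p in that fit. Cbr3, Prdx3 and Gpx1 were lost, and Cat and Gstp1 were gained. Without those arrays, which leaves 2 per genotype, the 6 were DEGs once more and 9 members passed the adjusted p, 7 of them among the 18 (the 6 DEGs and Gsr), beside 29.4% of all genes in that fit. Cat and Gstm1 were gained without those arrays. The 18 members past the adjusted p in the whole comparison all kept their direction in both fits.

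**Figure D1:**
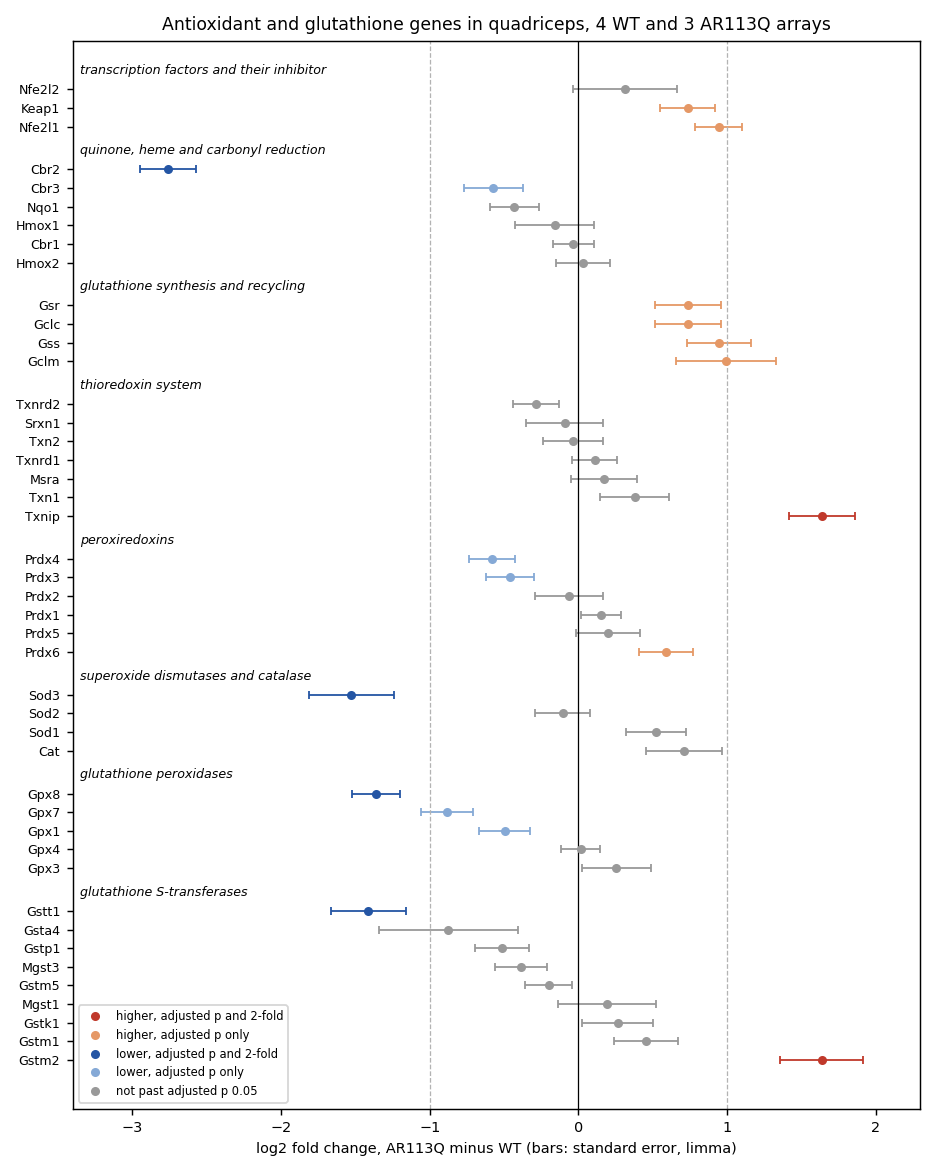
Log2 fold change (AR113Q minus WT) of the 44 members, grouped by role, with the standard error of the limma fit as bars and dashed lines at 2-fold. The points run from -2.76 for Cbr2 to 1.64 for Gstm2, and the 4 glutathione synthesis and recycling genes all lie between 0.73 and 0.99.

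Among the regulators, Nfe2l1 and Keap1 rose and Nfe2l2 did not pass the test. Nfe2l1 (Nrf1), a relative of Nrf2 that also drives proteasome genes, read 8.19, 8.29, 8.24 and 8.52 on the WT arrays and 9.42, 9.07 and 9.26 on the AR113Q arrays. The groups did not overlap, and the difference was 0.94 (standard error 0.16, adjusted p = 0.00240 from limma). Keap1, the adaptor through which Nrf2 is degraded, rose by 0.73 (adjusted p = 0.0131 from limma), from 11.60 to 11.93 on the WT arrays to 12.23 to 12.79 on the AR113Q arrays. Nfe2l2 read 11.65, 10.66 and 10.12 on the AR113Q arrays, against 10.09 to 10.73 on the WT arrays. Its groups overlapped, and its difference of 0.31 had an adjusted p of 0.494 from limma.

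All 4 genes of glutathione synthesis and recycling rose, each by less than 2-fold, and in none of them did the genotypes overlap. Of all genes tested 21% rose, and 49.3% had genotypes that did not overlap in either direction. Gss, glutathione synthetase, which adds glycine in the last step of synthesis, read 6.999, 6.78, 6.87 and 7.19 in WT and 8.35, 7.75 and 7.61 in AR113Q muscle. Its difference was 0.95 (standard error 0.21, adjusted p = 0.00861 from limma). Gclc, the catalytic subunit of glutamate-cysteine ligase, the rate-limiting enzyme of synthesis, read 8.96, 9.01, 8.78 and 8.93 in WT and 9.57, 9.24 and 10.16 in AR113Q muscle. The highest AR113Q value of Gclc was that of replicate 3, and its difference was 0.74 (standard error 0.22, adjusted p = 0.0287 from limma).

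Gclm, the modifier subunit of the same ligase, whose promoter is shown above, had a dim probe. It read 4.83, 5.18, 4.19 and 5.33 in WT and 6.48, 5.68 and 5.46 in AR113Q muscle, a difference of 0.99 (standard error 0.34, adjusted p = 0.0433 from limma). The lowest AR113Q value was 5.46 and the highest WT value 5.33, so that the gap between the groups was narrow. Gsr, glutathione reductase, which returns oxidized glutathione to its reduced form, read 10.40, 10.36, 10.36 and 10.50 in WT and 11.59, 11.18 and 10.65 in AR113Q muscle. Its difference was 0.73 (standard error 0.22, adjusted p = 0.0283 from limma), and a second probe gave 0.70.

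The size of these increases depended on the treatment of background for the dim probes. With normexp correction the difference of Gclm was 0.30 (adjusted p = 0.104 from limma) and 0.18 with the authors' values (adjusted p = 0.148), while Gss was at 0.51 and 0.39 and stayed past the threshold. Gclc (0.69 and 0.68) and Gsr (0.72 and 0.72) moved little. When each array was left out in turn, Gss passed an adjusted p of 0.05 in 7 of 7 fits, Gclc and Gclm in 2 and Gsr in 1. AR113Q replicate 3, the highest AR113Q array for Gclc and the lowest AR113Q array for Gsr, was also one of the arrays high in slow fiber genes. Without those 3 arrays the differences were 0.46 for Gclc (adjusted p = 0.182), 1.002 for Gclm (adjusted p = 0.0860), 0.96 for Gss (adjusted p = 0.0554) and 0.93 for Gsr (adjusted p = 0.0409, all from limma), and with them as a block all 4 passed the adjusted p.

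**Figure D2:**
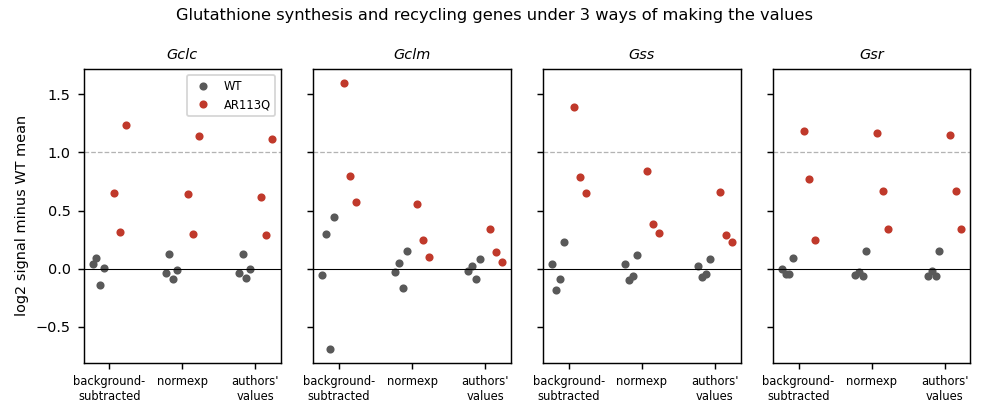
Log2 signal minus the WT mean for each array and each of the 4 glutathione synthesis and recycling genes, from background-subtracted, normexp-corrected and the authors' normalized values, with WT in grey, AR113Q in red and a dashed line at 2-fold. The AR113Q points of Gclm and Gss move toward 0 in the latter sets of values, and those of Gclc and Gsr keep their place.

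Cbr2 showed the largest difference of any member. This carbonyl reductase, an NADPH-dependent enzyme that acts on reactive carbonyls, read 13.89, 13.79, 13.45 and 13.66 in WT and 10.62, 11.07 and 11.13 in AR113Q muscle. No AR113Q value came near the WT values, and the signal was 6.77-fold lower (log2 difference -2.76, standard error 0.19, adjusted p = 9.11e-05 from limma). A second probe of Cbr2 gave -2.83. The probe that stands for the gene lies on chromosome 11 at 120590825 to 120590884 (mm9, the build of the array annotation).

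The other enzymes that act on quinones, heme and carbonyls moved less. Cbr3, a related carbonyl reductase, fell by 0.57 on the log2 scale (adjusted p = 0.0474 from limma), and the call was lost in 6 of 7 fits with an array left out. Nqo1, a quinone reductase and a standard Nrf2 target, was at -0.43 with no overlap between genotypes, but its adjusted p of 0.0669 from limma missed the threshold. Nqo1 passed with normexp correction (-0.41, adjusted p = 0.0311 from limma) and with the authors' values (-0.39, adjusted p = 0.0315 from limma). These were the 2 of 20 alternatives in which it passed. Hmox1, the inducible heme oxygenase, was at -0.16 (adjusted p = 0.647), Hmox2, the constitutive form, at 0.03 (adjusted p = 0.912) and Cbr1 at -0.03 (adjusted p = 0.863), all from limma and all with overlapping groups. For these last 3 genes the sign changed under at least 1 other way of processing.

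In the thioredoxin system 1 of 7 genes passed the test, beside 43.6% of all genes. Txnip, the thioredoxin-interacting protein, which binds reduced thioredoxin and restrains glucose uptake, read 13.86, 13.40, 13.00 and 13.25 in WT and 15.16, 14.80 and 15.08 in AR113Q muscle. All AR113Q values were above all WT values, and the signal was 3.11-fold higher (log2 difference 1.64, standard error 0.22, adjusted p = 0.000966 from limma). A second probe gave 1.78. The probe that stands for the gene lies on chromosome 3 at 96365147 to 96365206 (mm9).

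The thioredoxins and their reductases did not pass the test. Txn1, cytosolic thioredoxin, was at 0.38 (adjusted p = 0.222) with 12.21, 11.66 and 11.23 on the AR113Q arrays, so that replicates 1 and 2 stood above and replicate 3 within the WT range of 11.20 to 11.43. Without the 3 arrays high in slow fiber genes, of which AR113Q replicate 3 is one, Txn1 was at 0.61 (adjusted p = 0.142 from limma). Its mitochondrial counterpart Txn2 was at -0.04, the reductases Txnrd1 (cytosolic) and Txnrd2 (mitochondrial) were at 0.11 and -0.28, sulfiredoxin Srxn1, which repairs overoxidized peroxiredoxins, was at -0.09, and the methionine sulfoxide reductase Msra was at 0.17. The groups overlapped in each of these 6 genes.

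Peroxiredoxins, which reduce peroxides through a reactive cysteine, split by member. Prdx6, which uses glutathione rather than thioredoxin, rose by 0.59 (adjusted p = 0.0314 from limma), from 12.37, 12.87, 12.65 and 12.41 in WT to 12.95, 13.28 and 13.27 in AR113Q muscle, and other probes of the gene gave 0.98 and 0.75, the latter of which also matches Prdx6b. The call of Prdx6 was lost in 5 of 7 fits with an array left out, and the pair of arrays on slide 2 differed by 0.07. Prdx4, the peroxiredoxin of the endoplasmic reticulum, fell by 0.58 on the log2 scale (adjusted p = 0.0172 from limma), from 7.99 to 8.16 in WT to 7.34 to 7.71 in AR113Q muscle. Prdx3, the mitochondrial member, fell by 0.46 on the log2 scale (adjusted p = 0.0497 from limma), and this call was lost in 6 of 7 fits with an array left out. Prdx2 was at -0.06 and Prdx5 at 0.20, with overlap in both.

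Prdx1, whose promoter holds the antioxidant core shown above, gave different answers from its probes. The brighter probe, which stands for the gene, was at 0.15 (adjusted p = 0.401 from limma), and the second was at -0.80 (adjusted p = 0.00878 over all probes kept, from limma). The probes lie on chromosome 4, at 116371818 to 116371877 and at 116372422 to 116372481 (mm9), and the level of Prdx1 is therefore uncertain.

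Sod3 fell, and the intracellular dismutases did not pass the test. Sod3, the extracellular superoxide dismutase, which binds to the matrix around cells and vessels, read 9.52, 9.81, 9.24 and 9.88 in WT and 7.42, 8.39 and 8.44 in AR113Q muscle. The groups did not overlap, and the signal was 2.88-fold lower (log2 difference -1.53, standard error 0.29, adjusted p = 0.00386 from limma). Sod1, the cytosolic copper and zinc enzyme, read 15.06, 15.17, 14.81 and 14.97 in WT and 15.88, 15.53 and 15.14 in AR113Q muscle, a difference of 0.52 with an adjusted p of 0.0695 from limma. Sod2, the mitochondrial enzyme, was at -0.11. Cat, catalase, was at 0.71 with no overlap and an adjusted p of 0.0541 from limma, and its second probe was at 1.03 (adjusted p = 0.00344 over all probes kept). Cat passed the test with the arrays high in slow fiber genes as a block (0.82, adjusted p = 0.00420 from limma). It also passed without those arrays (0.82, adjusted p = 0.0380 from limma).

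Of 5 glutathione peroxidases, 3 fell and none rose, beside 22.6% and 21% of all genes. Gpx8, a peroxidase of the endoplasmic reticulum membrane, read 9.66, 9.84, 9.79 and 9.63 in WT and 8.38, 8.59 and 8.14 in AR113Q muscle. The values within each genotype lay close together, and the signal was 2.57-fold lower (log2 difference -1.36, standard error 0.16, adjusted p = 0.000565 from limma). Gpx7, which also resides in the endoplasmic reticulum, fell by 0.88 on the log2 scale (standard error 0.17, adjusted p = 0.00487 from limma), from 6.63, 6.50, 6.52 and 6.36 in WT to 5.94, 5.41 and 5.50 in AR113Q muscle. With the authors' normalized values the differences of Gpx7 and Gpx8 were -0.26 and -1.02, and both stayed past the adjusted p.

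Gpx1, the abundant cytosolic and mitochondrial peroxidase, fell by 0.50 on the log2 scale (adjusted p = 0.0457 from limma), from 13.89, 13.46, 13.86 and 13.83 in WT to 13.32, 13.08 and 13.40 in AR113Q muscle, and the call was lost in 5 of 7 fits with an array left out. Gpx3, the secreted form, was at 0.25, and Gpx4, which reduces lipid hydroperoxides in membranes, was at 0.02, with all 7 arrays between 14.98 and 15.12.

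**Figure D3:**
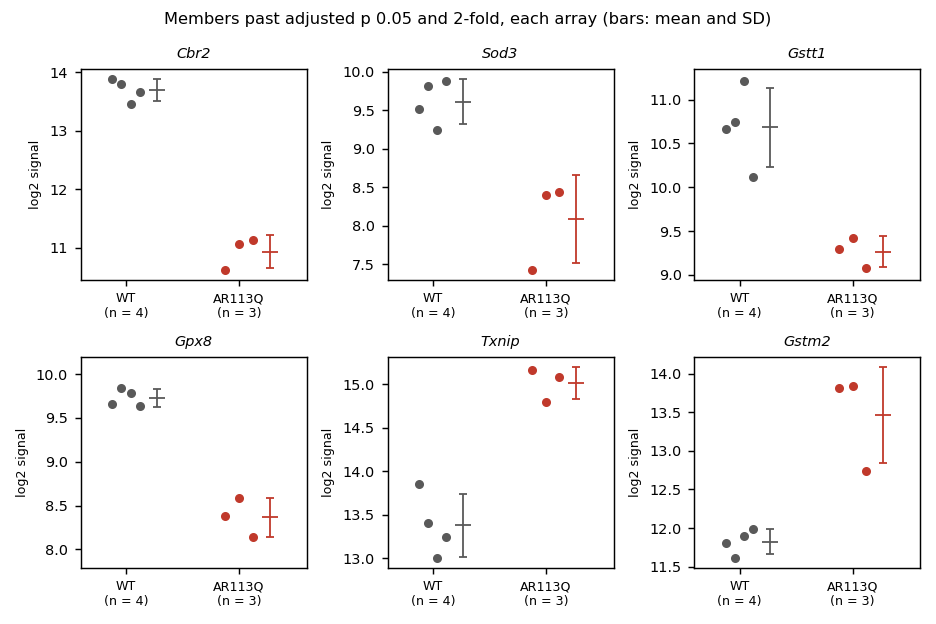
Log2 signal of the 6 members past an adjusted p of 0.05 and 2-fold, 1 panel per gene with its own axis, 4 WT arrays in grey and 3 AR113Q arrays in red, and mean with SD beside them. The genotypes do not overlap in any of the 6 panels, with Cbr2 2.76 lower and Txnip and Gstm2 1.64 higher in AR113Q muscle on the log2 scale.

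Glutathione S-transferases, which join glutathione to reactive compounds, included 1 DEG in each direction among 9 genes, beside 11.2% of all genes up and 13.1% down. Gstm2, a transferase of the mu class, read 11.80, 11.61, 11.90 and 11.98 in WT and 13.81, 13.84 and 12.74 in AR113Q muscle. AR113Q replicate 3 was lower than the other AR113Q arrays but above every WT array, and the signal was 3.11-fold higher (log2 difference 1.64, standard error 0.28, adjusted p = 0.00253 from limma). Without the 3 arrays high in slow fiber genes, of which AR113Q replicate 3 is one, the difference was 1.93 (adjusted p = 0.00695 from limma). Its other probes gave 1.61 and 1.72. One of the latter is placed on another chromosome than the gene by the array annotation, and mu-class genes are close relatives, so that the share of each in these signals is uncertain.

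Gstt1, a transferase of the theta class, fell. It read 10.66, 10.74, 11.21 and 10.12 in WT and 9.30, 9.42 and 9.08 in AR113Q muscle, 2.67-fold lower (log2 difference -1.41, standard error 0.25, adjusted p = 0.00307 from limma). Gstp1, of the pi class, was at -0.51 (adjusted p = 0.0505 from limma) with no overlap, on a probe that also matches Gstp2, and its second probe was at -0.69 (adjusted p = 0.00679 over all probes kept). With the arrays high in slow fiber genes as a block, Gstp1 was at -0.57 and passed (adjusted p = 0.0207 from limma). Without them it was at -0.67 and did not (adjusted p = 0.0681 from limma). Gsta4, which acts on lipid peroxidation products, was at -0.87 with AR113Q values of 5.34, 6.79 and 7.38 and an adjusted p of 0.163 from limma. Gstm1 was at 0.46, Gstm5 at -0.20, Gstk1 at 0.26, and the microsomal forms Mgst1 and Mgst3 at 0.19 and -0.39, none of them past the test. Without the arrays high in slow fiber genes Gstm1 was at 0.75 (adjusted p = 0.0484 from limma).

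Slide 2, the only slide with both genotypes, was read separately. Both of its arrays also enter the whole comparison, so that its values are no independent check. Its AR113Q array minus its WT array was opposite in sign to the whole comparison for Hmox2, Msra, Gstk1 and Mgst1. The differences there were -3.17 for Cbr2, 1.76 for Txnip, 2.20 for Gstm2, -2.39 for Sod3, -1.44 for Gstt1 and -1.46 for Gpx8. A single pair of arrays has no error of its own. With slide as a fixed effect, a fit that rests on this pair, none of the members passed an adjusted p of 0.05 in limma (0 of 44, with 14 at an unadjusted p of at most 0.05). Among all genes 0 passed the adjusted p in that fit, and 37.4% had an unadjusted p of at most 0.05.

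Other genes of the same pathway were taken from a list of 81, of which 80 had a probe and 72 were tested. Among the 72, 9 were DEGs that rose and 6 were DEGs that fell, and 36 passed the adjusted p (20 higher, 16 lower). These are shares of 20.8% and 50%, beside 24.3% and 43.6% of all genes. The genes described are the 4 DEGs with the highest and the 4 with the lowest fitted difference, Sesn1, Maff, Mafk and Gstm7, and Duox1, Ncf4, Chac2 and Ephx1. The places of Gstm7 and Duox1 rest on values near background and have no order.

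Maff and Mafk encode small Maf proteins, the partners with which Nrf2 and Nrf1 bind the antioxidant element. Mafk read 7.91, 8.10, 7.75 and 8.11 in WT and 11.87, 11.35 and 11.28 in AR113Q muscle, a difference of 3.53 (standard error 0.20). Maff read 4.86, 6.08, 6.33 and 6.41 in WT and 10.48, 10.04 and 10.07 in AR113Q muscle, a difference of 4.28 (standard error 0.37). In both genes the groups did not overlap, but the size of the Maff difference depended on the background treatment, with 2.87 under normexp and 2.48 with the authors' values. Those of Mafk were 3.04 and 2.95, while Mafg, the third small Maf gene, was at 0.49 (adjusted p = 0.0487 from limma) and Bach1, which competes with Nrf2 for small Maf proteins, was at -0.46 (adjusted p = 0.0325 from limma).

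Sesn1 encodes a sestrin, a stress-induced protein that takes part in antioxidant defense and growth control. It read 4.75, 10.56, 10.08 and 10.06 in WT and 13.39, 13.57 and 13.61 in AR113Q muscle, a difference of 4.66 (standard error 1.28, adjusted p = 0.0198 from limma). WT replicate 1 stood far below the other WT arrays, and without it the difference was 3.29. With the authors' values it was 3.94. The call was lost without AR113Q replicate 1 (4.73, adjusted p = 0.0567 from limma) and without AR113Q replicate 2 (4.64, adjusted p = 0.0562 from limma). It was also lost with no filter on dim probes (4.66, adjusted p = 0.0599 from limma) and with slide as a fixed effect (2.82, adjusted p = 0.0523 from limma). Gstm7, another mu-class transferase, read 3.84 to 4.40 in WT and 6.44 to 7.01 in AR113Q muscle. Its probe was well above background on 3 of 3 AR113Q but on 1 of 4 WT arrays, so that the size of its difference is uncertain. With normexp correction it was at 0.96, under 2-fold.

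Among the genes that fell, Ephx1, an epoxide hydrolase and Nrf2 target, read 11.59, 12.37, 12.45 and 11.42 in WT and 10.44, 10.26 and 10.67 in AR113Q muscle, a difference of -1.50. Chac2, which breaks down glutathione, was at -1.50 with values of 9.54 to 9.72 in WT and 7.91 to 8.44 in AR113Q muscle. Ncf4, a subunit of the phagocyte NADPH oxidase, was at -1.85, and at -1.11 with normexp and -0.89 with the authors' values, the latter under 2-fold. Duox1, a peroxide-producing oxidase, was not well above background on the AR113Q arrays, and its signal was there at least 2.23-fold lower (a bound set by the dimmest signals well above background). With the authors' normalized values Duox1 was at -0.10 and did not pass the test.

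**Figure D4:**
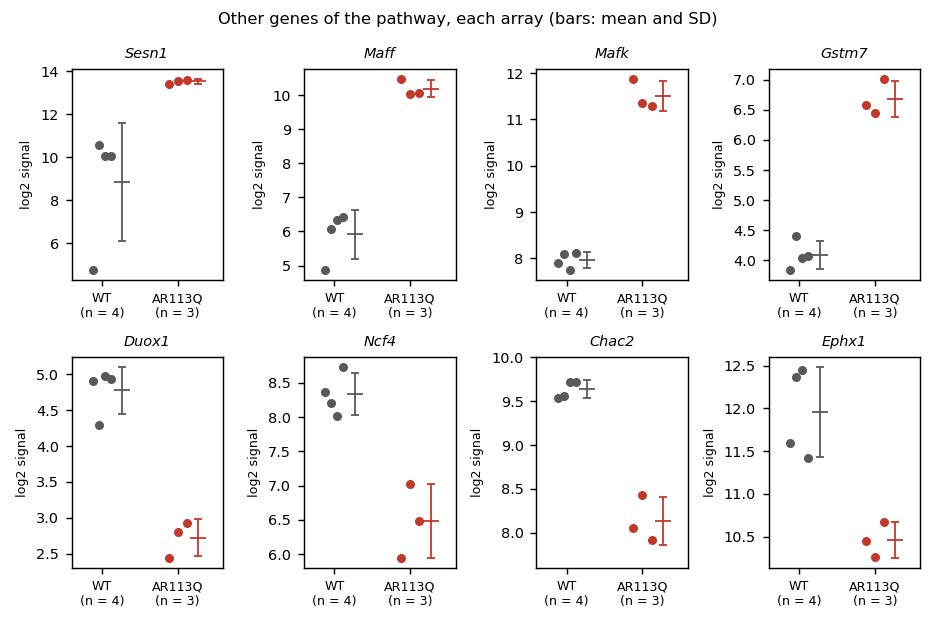
Log2 signal of the 8 other pathway DEGs with the highest and lowest fitted differences, 1 panel per gene with its own axis, 4 WT arrays in grey and 3 AR113Q arrays in red, and mean with SD beside them. Mafk and Maff lie 3.53 and 4.28 higher in AR113Q muscle, and the lone low WT point of Sesn1 is replicate 1 at 4.75.

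Markers of the cell types in muscle were read beside these results. For each list the signals were summed before taking log2, so that a summed level follows its brightest markers most. Of 9 myofiber markers 0 were DEGs. Their summed level overlapped between WT (19.22 to 19.54) and AR113Q muscle (18.67 to 19.66), as did those of endothelial and erythrocyte markers. The myofiber sum does not show the split of the arrays by slow fiber genes described above. Ckm, muscle creatine kinase, fell by 0.80 on the log2 scale without overlap (adjusted p = 0.0102 from limma), from 16.85 to 17.21 in WT to 16.04 to 16.59 in AR113Q muscle. Of 7 fibroblast markers 4 were DEGs that fell, while the sum of all 7 overlapped (16.67 to 16.96 in WT, 16.20 to 16.70 in AR113Q). Dcn, the brightest of them, was at 0.41 without overlap (adjusted p = 0.0692 from limma). Pdgfra was at -0.27 with overlap (adjusted p = 0.424 from limma), and Dpt fell by 0.96 on the log2 scale (adjusted p = 0.0165 from limma). Summed levels were lower without overlap for macrophage markers (12.63 to 13.49 in WT, 12.04 to 12.49 in AR113Q; 3 DEGs down and 1 up of 7), adipocyte markers (15.03 to 15.58 in WT, 14.81 to 14.83 in AR113Q; 4 of 6 down) and Schwann cell markers (10.89 to 12.07 in WT, 10.29 to 10.78 in AR113Q; 1 of 5 down). Fabp4, the brightest adipocyte marker, was at -0.21 with overlap (adjusted p = 0.325 from limma). The marker levels that were lower moved with Cbr2, Sod3, Gpx8, Gstt1, Ncf4 and the other genes that fell, and their part in those results was not tested.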

How the data were processed

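Quadriceps RNA of 4 WT and 3 AR113Q mice was labelled with Cy3 and hybridized to Agilent mouse expression arrays. Spots were extracted by the authors in Feature Extraction 10.7.3.1, and the deposited scanner files give an intensity per spot, background-subtracted and not normalized between arrays. Subtraction spreads the log2 values of dim spots. The authors also deposited log2 values for 18592 probes, which the methods describe as quantile normalized, with a median of 8.92 to 8.93 per array; they were used as an alternative, and their background treatment is not given in the sources used here. The methods name limma and a false discovery rate of 0.05.

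Here log2 intensities without control and outlier spots (94 to 151 per array) were quantile normalized, and spots of a probe were averaged. A probe had to be well above background on 3 or more of the 7 arrays (20987 were kept), and the brightest stood for its gene. Names came through RefSeq accessions (GRCm38.p6) for 28330 of 39429 probes, and otherwise from the files. The comparison of genotypes used limma 3.58.1 (R 4.3.3) with Benjamini-Hochberg adjustment over 16574 genes. On simulated data for this comparison over 16542 genes, 83.5% of 200 genes given a log2 change of 2 were recovered, and 19.5% of 200 given a log2 change of 1. No other genes were changed in each simulation, whereas 43.6% of all genes passed the adjusted p in the data. The adjustment is stricter where few genes change, so these shares do not give the recovery in the data. Samples were grouped by their labels. P-values measure the spread between these mice.

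Members and gene lists were chosen with earlier results of these data known. Both forms of the carbohydrate response element were added after the values of Txnip were seen. All members are named, with each array's value for DEGs, as are the 4 most increased and 4 most decreased DEGs of the pathway list; other genes of it and the members' values beyond these were chosen after their values were seen. The alternatives were normexp correction (offset 50), scaling to the 75th percentile, the authors' values, other filters on dim probes, the mean over probes, outlier spots kept, an intensity trend, slide as a random or fixed effect, a replicate block, no fold threshold and each array left out. The arrays high in slow fiber genes (Myh7 above the widest gap between arrays) as a block, and without them, were added after the data were seen.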

Additional observations from a re-analysis of the deposited data

Results flagged for a closer look

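Gpx1 on WT replicate 2 was singled out among 44 tests of the WT values, 1 per member. Its log2 signal of 13.46 lay apart from the other WT arrays (13.83 to 13.89), with a gap of 0.865 of the whole WT range. Chance gives such a gap in about 1 of 20 groups.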

How the results depend on the processing

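The 6 DEGs of the list passed an adjusted p of 0.05 in each of the 7 fits with an array left out, and in all other alternatives but slide as a fixed effect. Of the 12 members past the adjusted p at under 2-fold, 5 passed in each of those 7 fits (Nfe2l1, Keap1, Gss, Prdx4 and Gpx7). The number of members past the adjusted p lay between 11 (without WT replicate 1) and 20 with an array left out, beside 34.4% to 44.9% of all genes. With no filter on dim probes 11 members passed, beside 20.3% of all genes, and Gclc, Gclm and Cbr3 were among those lost. With scaling to the 75th percentile 15 members passed, beside 43% of all genes, and Gclm, Cbr3, Prdx3 and Gpx1 were lost.

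Member DEGs up (2) were 0 with slide as a fixed effect, 9 with no fold threshold and 2 to 5 with an array left out (5 without WT replicate 4, 4 without AR113Q replicate 2 or 3). Member DEGs down (4) were 0 and 9 with those first changes. Pathway DEGs up (9) were 4 with the authors' values, 0 with slide as a fixed effect and 20 with no fold threshold. Pathway DEGs down (6) were 3 with normexp, 2 with the authors' values, 0 with slide as a fixed effect and 16 with no fold threshold. DEGs up among all genes (1852) were 807 with normexp, 624 with the authors' values, 0 with slide as a fixed effect (6194 genes had an unadjusted p up to 0.05 in limma) and 3484 with no fold threshold, and DEGs down (2178) were 944, 741, 0 and 3746. The cause was not tested.

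With the replicate number as a replicate block, member DEGs up were 5, adding Nfe2l1, Gclm and Gss, and 11 members passed the adjusted p, beside 33.4% of all genes. WT replicate 4 has no partner, so the block also removes it from the differences, which equal those without WT replicate 4, where member DEGs up were 5 as well. WT and AR113Q arrays of the same number had deviations correlated at 0.04, -0.02 and 0.16, beside -0.17 to 0.12 for unlike numbers. The sources used here do not say that the numbers pair mice. Paired mice need not correlate in this way, so these values cannot decide it.

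With the 3 arrays high in slow fiber genes as a block or left out, fits added after the data were seen, every count of DEGs stayed within 1.5 times its value.

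Signs changed in 13 members, none past the adjusted p. Hmox1 was at 0.013 (mean over probes) and 0.022 (replicate block), Hmox2 at -0.063 (normexp), -0.065 (authors' values) and -0.11 (slide fixed, and slow fiber arrays left out), Cbr1 at 0.051 (75th percentile), Txn2 at 0.028 (normexp), 0.037 (authors' values) and 0.093 (mean over probes) and 0.016 (slow fiber arrays as a block), Msra at -0.012 (slide fixed), Prdx1 at -0.32 (mean over probes), Prdx2 at 0.0043 and Gpx4 at -0.082 (75th percentile), Srxn1 at 0.12 and Gpx4 at -0.017 (slow fiber arrays left out), Gstk1 at -0.48 and Mgst1 at -0.52 (slide fixed). With an array left out, Nfe2l2 ranged from -0.11 to 0.66, Hmox1 from -0.29 to 0.047, Hmox2 from -0.068 to 0.20, Cbr1 from -0.11 to 0.035, Txn2 from -0.23 to 0.10, Srxn1 from -0.36 to 0.048, Prdx2 from -0.30 to 0.20, Sod2 from -0.27 to 0.020, Gpx4 from -0.0032 to 0.041 and Mgst1 from -0.17 to 0.41.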

Other observations

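Genes that supply cysteine and NADPH to these systems were read from the same pathway list. Cbs and Cth, the enzymes that turn homocysteine into cysteine for glutathione, rose by 2.41 and 2.16 on the log2 scale. Cbs read 5.40, 4.59, 5.03 and 5.48 in WT and 7.95, 7.84 and 6.81 in AR113Q muscle, and Cth read 6.13, 6.45, 6.54 and 5.46 in WT and from 7.75 to 8.997 in AR113Q muscle. The groups did not overlap in either gene. Both probes were dim, and the differences of Cbs and Cth were 1.08 and 1.23 with normexp and 0.76 and 0.94 with the authors' values, past the adjusted p in each case.

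Of 8 genes of NADPH supply, 1 rose and 4 fell past an adjusted p of 0.05 in limma, beside 21% and 22.6% of all genes. Summed adipocyte and macrophage markers were lower in AR113Q muscle as well, and their part was not tested. Tkt and Taldo1, of the pentose phosphate pathway, were at -1.03 and -0.53, G6pdx, its first enzyme, at -0.64, and Me1, malic enzyme, at -0.96. Nnt, the mitochondrial transhydrogenase, was at 0.94 (adjusted p = 0.0329 from limma), on the 1 of its 3 probes that was kept. The pair of arrays on slide 2 differed by 0.03 for Nnt.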
